A study of Homo sapiens with 8 samples.

Results

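H1 cells transduced with a lentivirus labelled OE-NANOG were compared with H1 cells transduced with the vector labelled EF1a-control, in 4 of the 8 arrays of the series, 2 per group. The arrays were chosen by their titles alone, and 12436 genes with a probe above an intensity of 123.7 on at least 2 of the 8 arrays were tested. H1 is an established human embryonic stem cell line. Cells of both groups grew in mTeSR medium on Matrigel and received their virus with polybrene, so the controls carry virus and vector as well. The control label names the EF1a promoter, and the promoter of the NANOG vector, any selection and the time from transduction to harvest are details not given in the sources used. Of the other 4 arrays, 2 hold cells given OCT4 vector and 2 cells given SOX2 vector. They entered the fit to estimate the spread and the filter. The labels do not say whether replicates are separate cultures, and p-values therefore measure a spread between arrays that may be technical.

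NANOG is a homeodomain transcription factor that binds many of the same regulatory regions as OCT4 and SOX2 and supports self-renewal of pluripotent cells. Human embryonic stem cells resemble the epiblast after implantation, the primed state, and depend on FGF and on activin or nodal signalling, whereas the naive state is that of the epiblast before implantation. In human embryonic stem cells NANOG is known for acting beside the SMAD proteins of the activin and nodal pathway and for holding back neuroectoderm differentiation.

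The deposited probes did not show a rise of NANOG itself. The brighter NANOG probe read 491 and 358 on the control arrays and 347 and 387 on the arrays labelled NANOG (log2 change -0.22, SE 0.21, adjusted p = 0.694), and these ranges overlapped. POU5F1, which encodes OCT4, read 3447 and 2833 against 3945 and 3794 (log2 change 0.31, SE 0.16, adjusted p = 0.392), and SOX2 read 1272 and 1587 against 1027 and 1083 (log2 change -0.44, SE 0.24, adjusted p = 0.407). Each factor had a dimmer probe, fitted and adjusted among all probes past the filter. That of NANOG read 308 and 263 in control against 231 and 251, without overlap (log2 change -0.29, adjusted p = 0.390). That of SOX2 read 959 and 1337 against 716 and 687 (log2 change -0.72, adjusted p = 0.0830). That of POU5F1 read 131 and 136 against 132 and 137 (log2 change 0.02). No position of these probes is given in the sources used, and one lying outside the sequence in the vector could not see it, so groups are called by their labels and every direction below rests on them. Of 8 markers of pluripotent cells, 7 exceeded the filter intensity on all 4 arrays, CRIPTO being the exception. Their summed intensity was 23506 and 23301 in control and 19963 and 19845 in cells labelled NANOG. Of 8 markers of blood and endothelium, 0 exceeded it on all 4 arrays, nor did any of the 6 neuroectoderm, 5 endoderm and 5 mesoderm markers. PAX6, SOX1, SOX17, TBXT and 6 others of these 16 exceeded it on none, RAX and CXCR4 on 3, and LHX2 and AFP on both control arrays alone. The mesoderm markers MIXL1 (127 and 136) and EOMES (139.5 and 148) exceeded it on both NANOG arrays alone. COL1A1, COL1A2 and THY1 were the 3 of 8 fibroblast markers above it on all 4, while COL3A1, LUM and POSTN were on none. The 2 NANOG arrays agreed closely, with 0 genes more than 1 log2 unit apart, whereas 44 genes were that far apart between the 2 control arrays. Between the 2 OCT4 arrays there were 42 such genes and between the 2 SOX2 arrays 303, and the spread in the fit includes these arrays.

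Rises outnumbered falls in cells labelled NANOG. Of 12436 genes, 341 rose (2.74%) and 110 fell (0.885%), 3.63% in all, by limma's moderated test with Benjamini-Hochberg adjustment at a threshold of 0.05. At an unadjusted p under 0.05 the same test gave 1106 genes higher and 987 lower, the background for such counts below. Levels below are deposited intensities, whereas log2 changes were fitted after background correction and exceed those of the printed intensities for each of the 341 risers, as for DPPA3, at 4.11 with the correction and 3.65 without it. Fitted changes of at least 2-fold were seen for 145 of the risers and 29 of the genes that fell. The bulk of the transcriptome moved little, with a median log2 change of -0.02 and a 5th to 95th percentile range of -0.42 to 0.50. Of all genes tested 46.4% lay above the control mean, the background for counts above control below. For each of the 451 called genes both NANOG arrays lay on the same side of both control arrays, but this held for 25.7% of all tested genes on the higher side and 29.7% on the lower side, so a separation of arrays is by itself common here. The 10 largest rises were those of DPPA3, LEFTY1, GDF3, CSH2, CST1, SPOCK2, DNAAF11, LEFTY2, PPP2R2C and QPCT. The 10 largest falls were those of SFRP1, SOX21, FRAS1, ALCAM, MEGF10, GPR176, STMN3, SLC7A5, USP9X and TTYH1. The counts rested on the arrays included. Without control replicate 2 they were 84 up and 7 down, without NANOG replicate 1 they were 49 and 0, and without NANOG replicate 2 they were 71 and 1.

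Some changes as large as these did not pass, and in them the control arrays lay apart. ABHD12B, a lipase-like gene, read 518 and 140.3 in control and 2322 and 2023 in cells labelled NANOG (log2 change 3.30, adjusted p = 0.0587), and the endothelin receptor gene EDNRB read 471 and 117 against 1209 and 1246 (log2 change 2.73, adjusted p = 0.0758). UTF1, a chromatin factor of pluripotent cells, read 370.1 and 146 against 573 and 616 (adjusted p = 0.141). In each of these control replicate 1 was brighter than control replicate 2, and both NANOG arrays were brighter than either. ADM, the adrenomedullin gene, went the other way, at 1508 and 3901 against 804 and 851 (log2 change -1.60, adjusted p = 0.0524). These 4 genes were chosen after their values were seen.

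**Figure D1:**
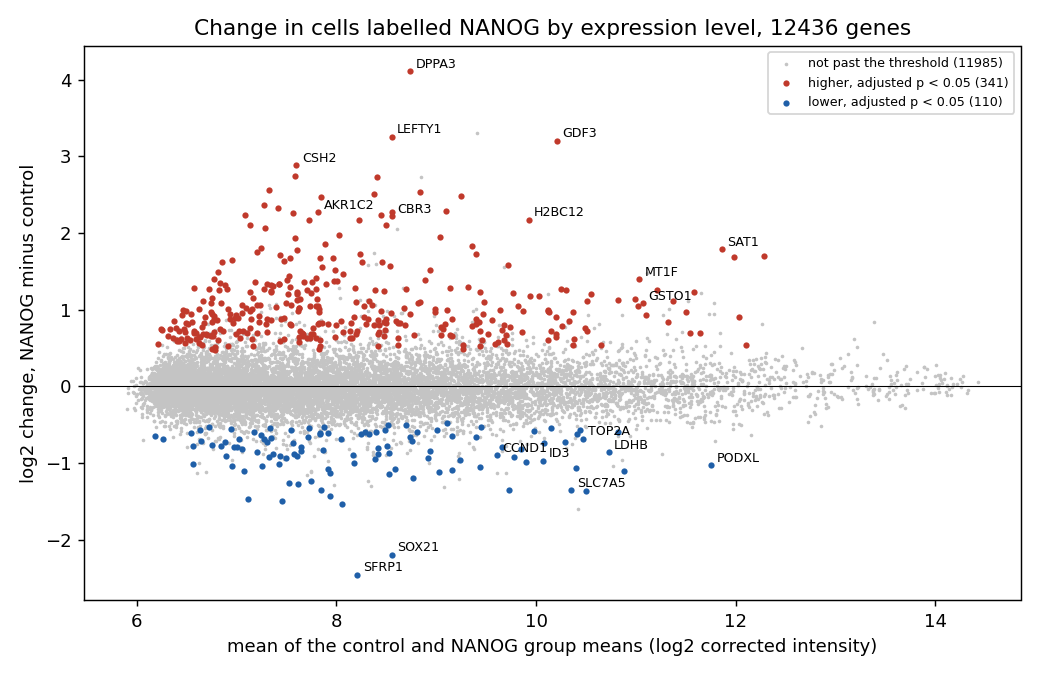
Log2 change (NANOG minus control, y axis) against the mean of the 2 group means (log2 background-corrected intensity, x axis) for 12436 genes, 1 point per gene. Red points are the 341 genes that rose and blue points the 110 that fell at an adjusted p under 0.05; the risers reach a log2 change of 4.11 (DPPA3) and the falls -2.46 (SFRP1).

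Some of the genes that rose lay next to each other in the genome. With the 12427 tested genes that RefSeq places put in chromosomal order, 23 runs of adjacent genes changed in the same direction, 20 of them upward, and together they held 54 genes. The longest was the growth hormone and placental lactogen cluster, with 5 genes in a row (CSH2, GH2, CSH1, CSHL1, GH1). MT1M, MT1F, MT1G and MT1H formed a run of 4 metallothionein genes, and GTSF1, NCKAP1L, PDE1B and PPP1R1A a run of 4 genes of unlike function. AKR1C2, AKR1C3 and AKR1C4 formed a run of 3. The pairs included GDF3 with DPPA3, LEFTY1 with LEFTY2, NLRP7 with NLRP2, GSTM2 with GSTM1, H2AC18 with H2AC19, LGALS7 with LGALS7B and GPRASP2 with GPRASP3. Only 3 runs fell, MED14 with USP9X, VLDLR with its antisense gene VLDLR-AS1, and CSMD2 with C1orf94. Several runs consist of near-identical paralogs, whose probes can bind each other's transcripts, so their members are uncertain one by one. The HAS2 with HAS2-AS1 and VLDLR with VLDLR-AS1 pairs are sense and antisense partners.

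Promoters are printed here for a pair and 2 runs of neighbours whose rises are described next, so that shared and private sequence can be seen. They are RefSeq sequences of build GRCh38.p14, from 250 bases before to 50 bases after the start, 5′ to 3′ on the gene's own strand. Capitals mark matches on either strand to 5 short motifs: TAATGG of homeodomain proteins, the octamer ATGCAAAT of POU proteins, CATTGT of SOX proteins, TGCACNC or TGCGCNC of metal response elements, and the antioxidant element core TGACNNNGC. No matches overlap in the sequences shown. DPPA3 lies at chr12:7711183-7711482 on the plus strand and holds 0 matches, and GDF3 lies at chr12:7695726-7696025 on the minus strand with 1 SOX match. AKR1C2 (chr10:5003808-5004107, minus strand) holds 0 matches, AKR1C3 (chr10:5048531-5048830, plus strand) holds 1 homeodomain and 1 metal match, and AKR1C4 (chr10:5196587-5196886, plus strand) holds 0. MT1H (chr16:56669564-56669863, plus strand) holds 8 metal matches.
DPPA3: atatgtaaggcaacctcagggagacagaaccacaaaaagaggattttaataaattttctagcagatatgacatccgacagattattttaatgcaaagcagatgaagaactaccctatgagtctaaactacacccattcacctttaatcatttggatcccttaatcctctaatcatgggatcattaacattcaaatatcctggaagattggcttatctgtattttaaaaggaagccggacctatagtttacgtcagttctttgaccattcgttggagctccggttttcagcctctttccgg
GDF3: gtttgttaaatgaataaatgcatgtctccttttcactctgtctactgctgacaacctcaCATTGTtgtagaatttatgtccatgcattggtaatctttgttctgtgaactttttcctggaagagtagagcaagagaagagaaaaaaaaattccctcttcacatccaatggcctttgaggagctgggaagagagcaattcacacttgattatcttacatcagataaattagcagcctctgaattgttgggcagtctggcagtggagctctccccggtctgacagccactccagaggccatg
AKR1C2: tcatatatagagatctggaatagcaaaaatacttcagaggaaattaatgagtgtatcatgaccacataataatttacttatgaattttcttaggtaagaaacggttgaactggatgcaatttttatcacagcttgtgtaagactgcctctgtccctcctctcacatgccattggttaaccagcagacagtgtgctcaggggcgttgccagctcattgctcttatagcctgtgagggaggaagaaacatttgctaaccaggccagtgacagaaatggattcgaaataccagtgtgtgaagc
AKR1C3: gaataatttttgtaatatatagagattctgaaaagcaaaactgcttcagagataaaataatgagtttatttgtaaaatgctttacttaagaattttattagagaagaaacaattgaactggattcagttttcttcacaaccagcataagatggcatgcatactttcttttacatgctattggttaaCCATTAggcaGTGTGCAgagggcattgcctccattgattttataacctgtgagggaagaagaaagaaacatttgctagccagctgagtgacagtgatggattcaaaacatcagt
AKR1C4: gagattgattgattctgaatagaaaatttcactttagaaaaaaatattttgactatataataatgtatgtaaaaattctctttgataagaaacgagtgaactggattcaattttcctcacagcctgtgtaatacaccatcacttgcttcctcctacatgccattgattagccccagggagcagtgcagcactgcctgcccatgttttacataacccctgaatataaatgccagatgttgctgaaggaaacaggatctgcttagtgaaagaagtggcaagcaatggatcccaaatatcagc
MT1H: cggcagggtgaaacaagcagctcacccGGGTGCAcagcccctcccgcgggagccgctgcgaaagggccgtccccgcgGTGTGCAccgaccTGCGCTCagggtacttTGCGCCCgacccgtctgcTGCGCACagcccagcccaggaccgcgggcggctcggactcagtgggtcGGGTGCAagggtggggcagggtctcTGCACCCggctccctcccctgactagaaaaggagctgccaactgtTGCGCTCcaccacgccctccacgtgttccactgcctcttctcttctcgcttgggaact

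The AKR1C promoters resembled each other, with 70.2% of aligned positions identical between AKR1C2 and AKR1C3, 62.9% between AKR1C2 and AKR1C4 and 63.5% between AKR1C3 and AKR1C4, against 50.3% between DPPA3 and GDF3. Over 27305 promoters of this length, TAATGG occurred in 6.87%, the octamer in 1.80%, CATTGT in 11%, the metal element in 29.3% and the antioxidant core in 13.6%. Among the 259 promoters of genes that rose, the same motifs occurred in 3.86%, 3.09%, 5.41%, 40.9% and 13.5%, and among the 84 of genes that fell in 2.38%, 0.0%, 7.14%, 47.6% and 13.1%. Among the 9937 promoters of tested genes they occurred in 4.25%, 1.40%, 6.13%, 38.6% and 15%. These shares are descriptions of letters in a window and were not tested.

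The growth hormone cluster rose throughout. These genes encode pituitary growth hormone and its placental relatives, the placental lactogens. CSH2 read 116 and 111 on the control arrays and 554 and 585 on the NANOG arrays, at least 4.60-fold higher (adjusted p = 0.000103). CSH1 read 114 and 107 against 396 and 388, at least 3.17-fold higher (adjusted p = 0.000115). For both genes, and for the others given below as at least a fold, the control values lay below the filter intensity, so only a lower bound can be given, the geometric mean of the deposited intensities on the NANOG arrays over the filter intensity. CSHL1 read 125 and 119 against 324 and 303 (log2 change 1.76, SE 0.13, adjusted p = 0.000371), and GH1 read 107 and 109 against 267 and 225, at least 1.98-fold higher (adjusted p = 0.00126). GH2 read 116 and 109 against 174 and 161, at least 1.35-fold higher. All 5 measured genes of the cluster rose, 4 of them passed the filter only through the NANOG arrays, and 4 to 5 were called with any 1 array left out. On the OCT4 and SOX2 arrays the CSH2 probe read between 104 and 121. The cluster was chosen as a group after its values were seen, as were the other groups said below to be so chosen.

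Enzymes that reduce aldehydes and ketones were examined as a group chosen after its values were seen. The AKR1C enzymes reduce steroid hormones, prostaglandins and reactive aldehydes, and CBR3 is a carbonyl reductase. AKR1C2 read 153 and 137 in control and 569 and 509 in cells labelled NANOG (log2 change 2.27, SE 0.13, adjusted p = 0.000115). AKR1C4 read 149 and 136 against 517 and 467 (log2 change 2.17), and AKR1C3 169.7 and 177 against 597 and 519 (log2 change 1.97). CBR3, on another chromosome, read 258 and 183 against 838 and 873 (log2 change 2.22, SE 0.21, adjusted p = 0.00112). For each of the 4 the lowest NANOG value was well above the highest control value. Of 10 measured aldo-keto and carbonyl reductases 4 rose and 0 fell, and the same number was called with any 1 of the 8 arrays left out. CBR1 at a log2 change of 0.13, AKR7A2 at -0.01 and AKR1D1 at 0.18 did not pass.

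Glutathione enzymes included both rises and a fall. Of 21 measured glutathione transferases and glutaredoxins, a group chosen after its values were seen, 4 rose and 1 fell. Over all genes tested 2.74% rose and 0.885% fell, so more rises than falls is also the pattern of all genes. The thiol reductase gene GLRX read 422 and 386 against 1044 and 816 (log2 change 1.29, SE 0.22, adjusted p = 0.0194), and GSTO1, an omega class transferase, 1708 and 1346 against 3292 and 3048 (log2 change 1.08, SE 0.16, adjusted p = 0.00964). GSTM2 (log2 change 0.72) and its neighbour GSTM1 (0.62) rose, and the mitochondrial GLRX2 fell (log2 change -0.57). The wider list of oxidative stress genes and targets of NRF2, the main antioxidant transcription factor, had few calls. Of 32 measured, 3 rose, 0 fell and the median was -0.05, beside -0.02 over all genes. Its 3 risers were GSTO1, GSTM1 and GPX3, a secreted glutathione peroxidase (279 and 263 against 438 and 405). The classical NRF2 targets NQO1 (log2 change -0.01), HMOX1 (-0.34), SRXN1 (-0.16) and GCLM (0.16) did not pass. With control replicate 2 or either NANOG array left out, 0 members of either group were called.

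Several metallothioneins, small proteins that bind zinc and copper, rose. MT1F read 1718 and 1035 against 3300.1 and 3589.5 (log2 change 1.40, SE 0.24, adjusted p = 0.0188), MT1H, whose promoter is printed above, 1545 and 1603 against 3440.0 and 3986 (log2 change 1.26, SE 0.23, adjusted p = 0.0261), and MT1G 2947 and 3280.5 against 5653 and 5941. MT1M read 163 and 161 against 246 and 278 (log2 change 0.87). The zinc importer gene SLC39A8 read 204 and 205 against 359 and 359 (log2 change 0.97). Of 12 measured genes of the metallothionein and zinc list 5 rose and 0 fell, with a median log2 change of 0.80. MT1X at 0.84, MT2A at 0.77 and MT1E at 0.50 did not pass, and the zinc exporter gene SLC30A1 was at 0.17. The list median was 0.78 against control replicate 1 alone and 0.69 against control replicate 2 alone. Only 1 member was called without control replicate 1, and 0 without control replicate 2 or without either NANOG array.

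**Figure D2:**
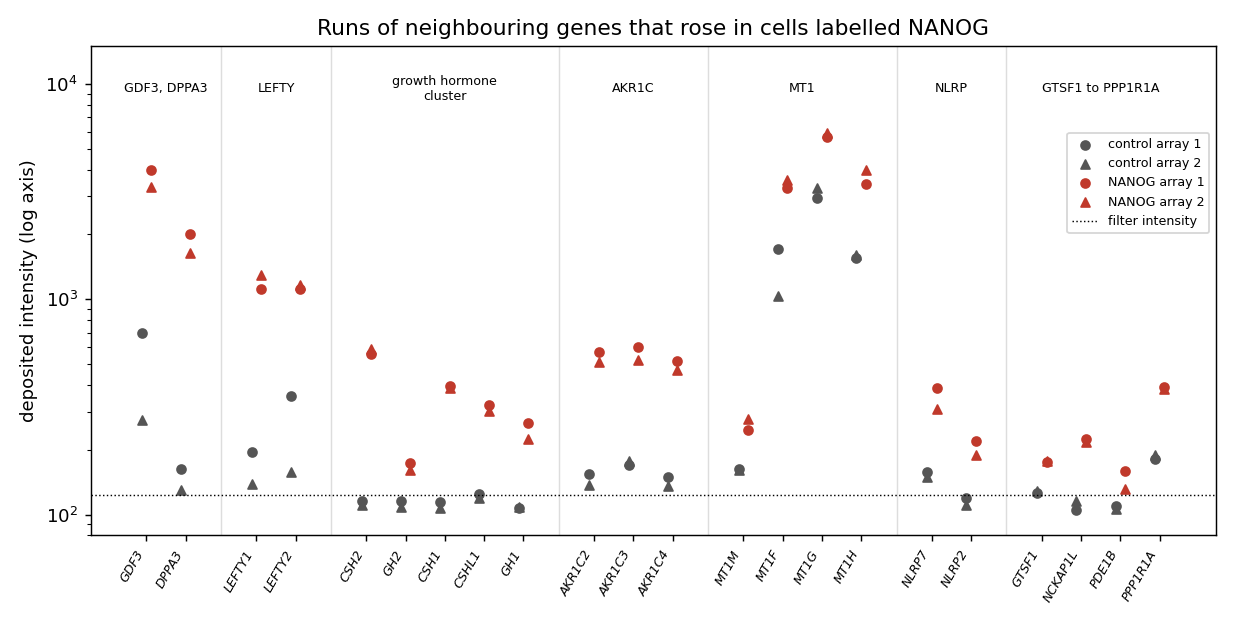
Deposited intensity (log axis) of 7 groups of neighbouring genes on the 2 control arrays (grey) and the 2 NANOG arrays (red), 1 point per array, with the filter intensity of 123.7 as a dotted line. Each gene's red points lie above its grey points, and in control CSH2, GH2, CSH1, GH1, NLRP2, NCKAP1L and PDE1B lie below the dotted line on both arrays.

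Some genes of the naive state, the germ line and the early embryo rose, while most shared pluripotency genes did not pass. DPPA3, which in mouse eggs protects maternal chromatin from demethylation, read 163 and 130.2 against 2018 and 1642 (log2 change 4.11, SE 0.17, adjusted p = 6.77e-05). It is next to GDF3, a secreted ligand of the TGF-beta superfamily, which read 699 and 275 against 3986 and 3316 (log2 change 3.20, SE 0.45, adjusted p = 0.00870). Both lie close to NANOG itself. Of 8 measured annotated neighbours of NANOG these were the 2 that rose and 0 fell, and the glucose transporter genes SLC2A3 (log2 change -0.51) and SLC2A14 (-0.71) did not pass. DPPA5, an RNA-binding protein of early embryos, read 178 and 118 against 359.6 and 352 (log2 change 1.63, SE 0.25, adjusted p = 0.0123), and KLF2, a transcription factor of the naive state, 163 and 155 against 249 and 262 (log2 change 0.87, SE 0.12, adjusted p = 0.00795). The NANOG arrays lay above the controls for each of these.

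NLRP7 and NLRP2, neighbouring genes of maternal cytoplasmic proteins, read 158 and 149.7 against 386 and 309 (log2 change 1.44, SE 0.15, adjusted p = 0.00208) and 119 and 111 against 219 and 189 (adjusted p = 0.00466). NLRP12, an inflammation regulator elsewhere on the same chromosome, read 175 and 123 against 440.2 and 317 (log2 change 1.67, SE 0.25, adjusted p = 0.0112). Thus 3 of 4 measured NLRP genes rose, a group chosen after its values were seen. The array holds 14 NLRP genes, and 1 of the 4 measured, NLRP2, passed the filter only through the NANOG arrays. The homeobox gene VENTX read 514 and 299 against 1315 and 1254 (log2 change 1.84, SE 0.27, adjusted p = 0.0110). TCL1B, a coactivator of AKT kinase, read 247 and 191 against 585 and 575 (log2 change 1.62). CTCFL, the testis paralog of the insulator protein CTCF, was at least 1.67-fold higher, and GTSF1, a piRNA pathway factor, had a log2 change of 0.65. These 4 were the risers among 7 measured early embryo genes grouped after their values were seen, and 0 of the 7 fell. The array holds 12 genes of this group. Of the 7 measured, 2 passed the filter only through the NANOG arrays, among them the riser CTCFL.

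Of 13 measured genes on the naive list 4 rose (DPPA3, DPPA5, NLRP7, KLF2), 0 fell and 13 lay above the control mean, with a median log2 change of 0.41. A total of 3 of the 13 passed the filter only through the NANOG arrays, so for those 3 the filter favoured values above control. With no filter the median of the 20 naive list genes on the array was 0.19. TFCP2L1 (log2 change 0.67), KLF4 (0.26), ESRRB (0.15) and TBX3 (0.00) did not pass. Of 11 germ cell genes 3 rose, DPPA3, the RNA-binding gene DND1 (126 and 111 against 198 and 185) and the transcription factor gene TFAP2C (451 and 453 against 746 and 775). The median of the 11 was 0.24, and with no filter that of 23 germ cell genes was 0.09. Of 30 genes of the core and primed state list 2 rose (GDF3, SCGB3A2) and 2 fell (PODXL, POLR3G), and the median was -0.15. LIN28A was at a log2 change of -0.38, DNMT3B at 0.14, ZFP42 at -0.15 and L1TD1 at -0.09, none of which passed. Between 2 and 5 naive genes were called with any 1 array left out, and 1 to 3 germ cell genes.

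In the nodal pathway 2 feedback inhibitors rose. LEFTY1 and LEFTY2, adjacent genes for secreted inhibitors of nodal that the pathway itself induces, read 195 and 139 against 1117 and 1299 (log2 change 3.26, SE 0.44, adjusted p = 0.00778) and 355 and 157 against 1120.1 and 1158 (log2 change 2.53, SE 0.53, adjusted p = 0.0403). TGFBI, a matrix protein induced by TGF-beta, read 216 and 211 against 349.7 and 289 (log2 change 0.69). With GDF3 these were the 4 of 25 measured nodal, activin and TGF-beta genes that rose, 0 fell and the median was 0.03. NODAL, the ligand, read 347 and 163 against 843 and 829, a log2 change of 2.05 that did not pass (adjusted p = 0.145), and CER1, another nodal inhibitor, was at -0.04. Control replicate 1 was the brighter control array for GDF3, LEFTY1, LEFTY2 and NODAL. In this list 0 members were called without NANOG replicate 1 or NANOG replicate 2, and 1 without control replicate 2.

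In the BMP pathway ID2, ID3 and DLX5 fell. The ID proteins are helix-loop-helix inhibitors of differentiation factors that BMP signalling induces. ID3 read 1499 and 1594 in control and 765 and 856 in cells labelled NANOG (log2 change -0.97, SE 0.12, adjusted p = 0.00492), and ID2 read 263 and 409 against 162 and 159 (log2 change -1.26, SE 0.27, adjusted p = 0.0453). ID1, in the same family, read 947 and 1008 against 878 and 1100.4 (log2 change 0.01) and its groups overlapped. DLX5, a homeobox gene, read 132 and 135 against 95.7 and 105 (log2 change -0.65), close to the filter intensity. Of 18 measured BMP pathway genes 3 fell and 0 rose, with a median of -0.12. CITED2, a transcriptional coregulator outside the list that was grouped with the ID genes after its values were seen, read 353 and 462 against 188 and 229 (log2 change -1.13, SE 0.24, adjusted p = 0.0418). BMP4 was at a log2 change of -0.06 and did not pass. The BMP count was 0 without control replicate 2 or NANOG replicate 1.

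Among FGF receptor and ERK feedback genes 4 rose. DUSP5, a nuclear phosphatase of ERK, read 709.9 and 397 against 1502 and 1499 (log2 change 1.58, SE 0.28, adjusted p = 0.0237), and SPRED2, an inhibitor of RAS signalling, 203 and 193 against 492 and 407 (log2 change 1.38, SE 0.18, adjusted p = 0.00594). The ligand gene FGF19 read 180.3 and 142 against 289 and 277 and the ETS factor gene ETV5 1047 and 659.9 against 1703 and 1516. Of 26 measured members these 4 rose and 0 fell, with a median of 0.10. SPRY1 (log2 change 0.03), SPRY2 (0.58), SPRY4 (0.59) and DUSP6 (0.20), feedback inhibitors of the same pathway, and the ligand gene FGF2 (-0.81) did not pass. Without control replicate 2 or NANOG replicate 1 no member was called. Among other phosphatases DUSP26 rose (log2 change 1.23).

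In the WNT pathway the secreted antagonist SFRP1 fell and the ligand gene WNT3 rose, the only calls among 31 measured genes. SFRP1 read 468 and 1173 against 175 and 162 (log2 change -2.46, SE 0.42, adjusted p = 0.0199), with the control arrays themselves far apart, and WNT3 133 and 128 against 213 and 209.6 (log2 change 0.94, SE 0.20, adjusted p = 0.0414). Of 24 NOTCH genes HEY1, a target gene, rose (log2 change 0.84), and LFNG, which adds sugar to NOTCH receptors (492 and 518 against 283 and 306), and the ligand gene JAG1 (log2 change -0.52) fell. In the insulin, IGF and PI3K list of 20 measured genes PIK3R1, the regulatory subunit of PI3K, rose from 193 and 165 to 425 and 384 (log2 change 1.41, SE 0.21, adjusted p = 0.0104). Of its binding proteins for insulin-like growth factors, IGFBP3 rose (log2 change 1.36) and IGFBP5 fell (-1.04). AXL, a receptor tyrosine kinase, was the 1 of 20 Hippo and YAP target genes that changed, falling from 499.9 and 721 to 296 and 317. CRABP2, a carrier of retinoic acid, was the 1 of 14 retinoic acid genes that changed, from 1068 and 1145 to 646 and 669. None of 9 hedgehog genes passed (1 lower at an unadjusted p under 0.05), with GAS1 at -0.45 and GLI1 at -0.31.

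Among genes of other lineages, the trophectoderm, placental and amnion list held more calls than any other lineage list. In the list of trophectoderm, placental and amnion genes 7 of 15 measured members rose and 0 fell, with a median of 0.60. That was 46.7% of the members, beside 2.74% of all genes tested. Another 5 of the 15 lay below the control mean. At an unadjusted p under 0.05 in the same limma test, 8 members were higher and 3 lower. CSH2 and CSH1 were 2 of the 7, and the others were ABCG2, IGFBP3, GABRP, EPAS1 and TFAP2C. ABCG2, an efflux transporter of stem cells and placenta, read 116 and 104 against 361 and 309.5, at least 2.70-fold higher (adjusted p = 0.000153). GABRP, a GABA receptor subunit, read 184 and 131 against 370.1 and 305, and EPAS1, a hypoxia-inducible factor, 144 and 152 against 320.0 and 267 (log2 change 1.24, SE 0.19, adjusted p = 0.0140). The defining markers CDX2, GATA3, KRT7, CGA and VTCN1 were below the filter intensity on all 4 arrays, and 3 of the 15 passed only through the NANOG arrays. The summed intensity of 7 markers was 888 and 825 in control and 1075 and 1014 in cells labelled NANOG, and without GABRP that of the other 6 was 704 and 694 against 705 and 710. The part of other cell types in the result was not tested. With no filter the median of the 34 list genes on the array was 0.02. In bulk RNA, more cells of a type and more RNA per cell cannot be told apart.

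Neural genes went both ways. SOX21, a SOX factor of neural progenitors, fell from 706 and 1016 to 215 and 221 (log2 change -2.19, SE 0.26, adjusted p = 0.00462), and HESX1, a homeobox repressor also known from pituitary development, rose from 332 and 319 to 519 and 461 (log2 change 0.66, SE 0.15, adjusted p = 0.0484). With DLX5 these were the calls among 21 neuroectoderm genes, whose median was -0.08. In the neuronal cytoskeleton and vesicle list 2 of 27 rose, the tubulin gene TUBB2A (1926 and 1762 against 3621 and 4261) and NSG1 (718 and 612 against 1169.7 and 1070.4), and 2 fell, STMN3 (1879.7 and 2973 against 909.7 and 980.4) and SCG3 (437 and 416 against 292 and 302). Of 11 endoderm genes CST1, a cystatin (at least 4.36-fold), APOB, the lipoprotein scaffold (at least 1.54-fold), and CXCR4, a chemokine receptor (log2 change 0.88), rose, and 2 of these 3 passed the filter only through the NANOG arrays. Of 8 primitive streak and mesoderm genes WNT3 alone passed. Of 12 fibroblast markers 0 passed, with THY1 at 0.93 (adjusted p = 0.0532) and COL1A1 at -1.10, and of 6 blood and endothelial markers 0 passed, while at an unadjusted p under 0.05 there were 2 fibroblast markers higher and 2 lower and 1 blood or endothelial marker each way.

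Of 4 measured genes for GABA synthesis and transport 3 rose, in a group chosen after its values were seen. The array holds 7 such genes, and 1 of the 4 measured, GAD2, passed the filter only through the NANOG arrays. GAD1 and GAD2 make GABA from glutamate, and SLC32A1 loads it into vesicles. GAD1 read 143 and 158 against 336 and 294 (log2 change 1.33, SE 0.13, adjusted p = 0.00131), SLC32A1 152 and 148 against 326 and 304 (log2 change 1.34, SE 0.12, adjusted p = 0.000780), and GAD2 119 and 101 against 179 and 164, at least 1.38-fold higher (adjusted p = 0.0169). ALDH5A1, which breaks GABA down, was at a log2 change of 0.12 and did not pass. Of 17 GABA and glutamate receptors GABRP, GRM4 (log2 change 1.10) and GRIA1 (0.74) rose and 0 fell. Without control replicate 2, 2 of the GABA synthesis and transport genes and 0 of the receptors were called. Potassium channel genes changed in both directions, with KCNK12 (961 and 1023 against 1861 and 1934), KCNE5 and KCNIP4 higher and KCNG3 lower among 43 measured.

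**Figure D3:**
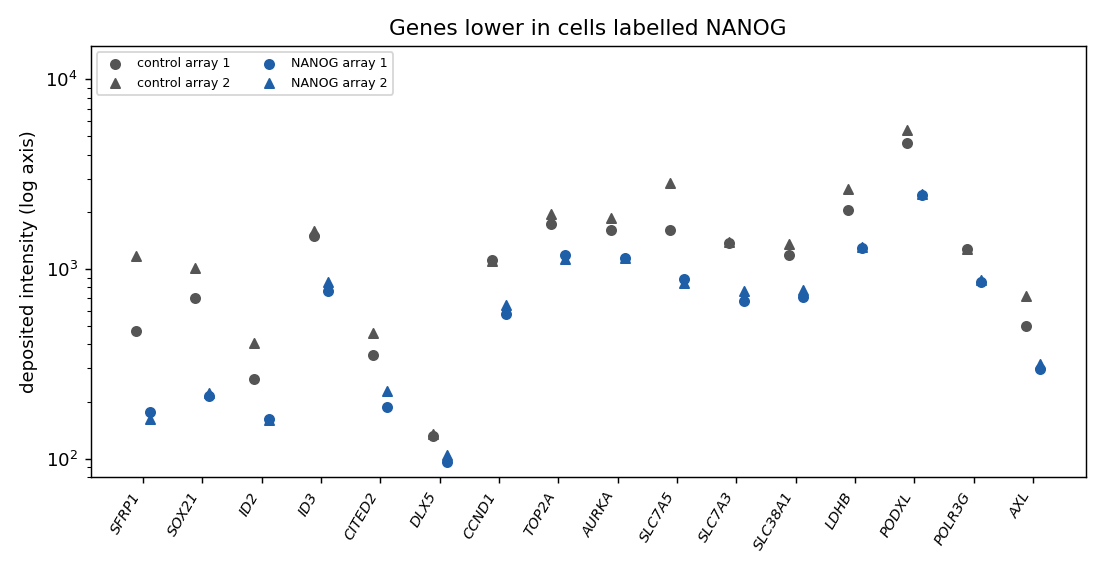
Deposited intensity (log axis) of 16 genes that fell, on the 2 control arrays (grey) and the 2 NANOG arrays (blue), 1 point per array. The blue points of each gene lie below its grey points, and the control arrays differ most for SFRP1, at 468 and 1173.

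Cell cycle genes lay mostly below control in cells labelled NANOG, with few calls. CCND1, cyclin D1 of the G1 phase, fell from 1118 and 1098 to 580.1 and 649 (log2 change -0.90, SE 0.14, adjusted p = 0.0138). TOP2A, which untangles chromosomes, fell from 1725 and 1952 to 1188 and 1134 (log2 change -0.68, SE 0.13, adjusted p = 0.0265), and the mitotic kinase gene AURKA from 1614 and 1854 to 1146 and 1141 (log2 change -0.62, SE 0.12, adjusted p = 0.0300). KIF2C, a kinesin that corrects attachments to the spindle, fell from 696 and 691 to 526 and 495 (log2 change -0.48). Of 65 measured mitosis genes 3 fell and 0 rose, 9 lay above the control mean, and the median was -0.28, beside -0.02 over all genes tested. BUB1 (log2 change -0.79), CCNB1 (-0.46), CDK1 (-0.37) and PLK1 (-0.34) did not pass.

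The size of the mitosis shift depended on the control array. The list median stood at -0.11 on control replicate 1 and 0.11 on control replicate 2, relative to their mean, and at -0.29 on both NANOG arrays. It was -0.13 against control replicate 1 alone and -0.42 against control replicate 2 alone. Of the 65 genes 49 were lower on both NANOG arrays than on either control array, beside 29.7% of all genes tested. The DNA replication and S phase list of 48 genes had a median of -0.17 with 0 calls (5 lower and 0 higher at an unadjusted p under 0.05), and ORC3 (log2 change -0.42) and GINS4 (-0.47) had its largest changes. Of 19 G1 cyclins, CDKs and inhibitors only CCND1 passed and the median was 0.03. Of 42 DNA repair genes 0 passed, with a median of -0.03, and of 31 p53 target and apoptosis genes 0 passed, with a median of 0.07. At an unadjusted p under 0.05, 1 repair gene was higher and 3 lower, and 2 p53 targets were higher and 1 lower.

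Genes for nuclear transport and for making ribosomes had lower medians that did not rest on 1 control array. Nuclear pore and transport genes stood at a median of -0.23, with 4 of 45 above control, and it was -0.24 against control replicate 1 and -0.25 against control replicate 2. KPNA2, an importin, read 1096 and 1524 against 781 and 788 (log2 change -0.75, adjusted p = 0.0565), and the importin beta gene KPNB1 3467 and 4167 against 2813 and 3064. Of 47 ribosome biogenesis and nucleolar genes 5 lay above control and the median was -0.17, with NOP56 at -0.43, TSR1 at -0.50 and POLR1E, of RNA polymerase I, at -0.55. No gene of either list passed in the fit of 8 arrays, limma's count being 0. At an unadjusted p under 0.05, 10 nuclear pore and 11 ribosome biogenesis genes were lower and 0 of either were higher. Over all 12436 genes 987 were lower and 1106 higher at that threshold. With the 4 control and NANOG arrays alone, 7 nuclear pore and 8 ribosome biogenesis genes were called lower and 0 higher. That fit called 492 of all genes lower and 725 higher. Of the 45 and 47 genes, 27 and 23 were among the 3109 brightest of all genes tested, whose median was -0.02.

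Aminoacyl-tRNA synthetases, which charge tRNAs, had a median of -0.23 over 18 genes, yet their only call was a rise, WARS1 from 1012 and 936 to 1697 and 1601 (log2 change 0.79, SE 0.11, adjusted p = 0.00915). HNRNP genes had a median of -0.09 over 26 genes and splicing factors of -0.11 over 42, with 0 calls each and, at an unadjusted p under 0.05, 1 HNRNP gene and 3 splicing factors lower. Translation initiation factors had 0 calls among 51 (1 higher and 6 lower at an unadjusted p under 0.05) and cytosolic ribosomal proteins 1 fall among 73, RPS7 (1740.0 and 1737 against 1198 and 1167). Among 78 mitochondrial ribosomal proteins MRPS11 rose (728 and 666 against 1203 and 1118).

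**Figure D4:**
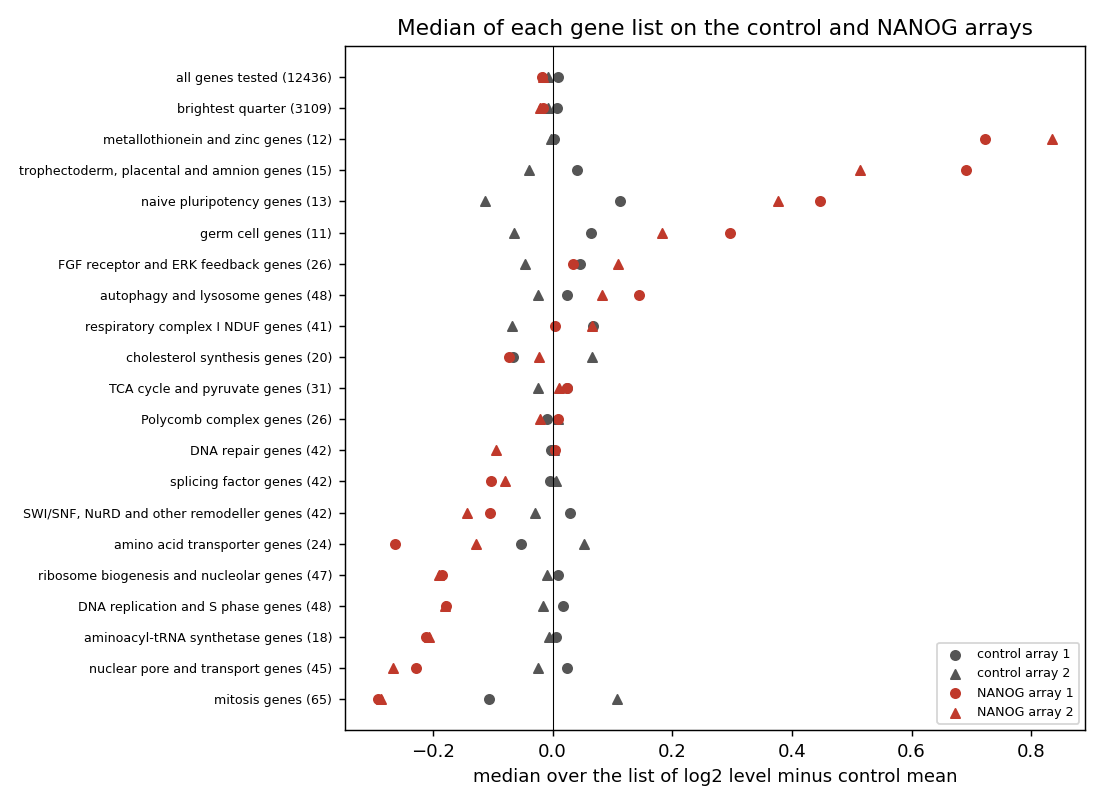
Median over each gene list of the log2 level minus the mean of the control arrays (x axis), on each control array (grey) and NANOG array (red), with the number of measured genes in brackets. The mitosis list separates the 2 control arrays (-0.11 and 0.11), the nuclear pore and ribosome biogenesis lists hold both NANOG arrays at or below -0.18, and all 12436 genes stay within 0.02 of zero.

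Among amino acid transporters 3 fell and 1 rose. SLC7A5, which imports leucine and other large neutral amino acids, fell from 1602 and 2842 to 883 and 839 (log2 change -1.35, SE 0.25, adjusted p = 0.0281). SLC7A3, a transporter of arginine and lysine, fell from 1369 and 1391 to 679 and 764 (log2 change -0.98, SE 0.19, adjusted p = 0.0297), and SLC38A1, a glutamine transporter, from 1187 and 1353 to 711 and 771 (log2 change -0.81, SE 0.18, adjusted p = 0.0488). SLC16A10, which carries aromatic amino acids, rose from 519.8 and 468 to 1115 and 1087 (log2 change 1.23, SE 0.24, adjusted p = 0.0338). These were the 3 falls and 1 rise among 24 measured transporters, whose median was -0.14, or -0.07 against control replicate 1 alone and -0.28 against control replicate 2 alone. SLC3A2, the partner chain of SLC7A5, was at a log2 change of -0.50 (adjusted p = 0.0574). In one-carbon metabolism GLDC, which cleaves glycine, rose from 1136 and 937 to 2396 and 1980.3 (log2 change 1.11, SE 0.14, adjusted p = 0.00549), and MTHFD1L, a mitochondrial folate enzyme, fell from 556 and 642 to 373 and 388 (log2 change -0.71, SE 0.12, adjusted p = 0.0173), the 2 calls among 23 genes. Without control replicate 2 or either NANOG array, 0 transporters were called.

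Central carbon metabolism showed single changes rather than a shift of a list. PGM1, which interconverts glucose phosphates, read 3331 and 1584 against 7889.9 and 6779 (log2 change 1.69, SE 0.31, adjusted p = 0.0243), and FBP1, an enzyme of glucose synthesis, 168 and 157 against 332 and 305 (log2 change 1.20, SE 0.13, adjusted p = 0.00256); both were named after their values were seen. LDHB, a lactate dehydrogenase subunit, fell from 2044 and 2637 to 1288 and 1314 (log2 change -0.86, SE 0.16, adjusted p = 0.0266). Of 38 hypoxia target and glycolysis genes 2 rose, EPAS1 and ERO1A, 1 fell, LDHB, and the median was 0.09. SUCLA2, a subunit of succinate-CoA ligase, rose from 723 and 522 to 1473 and 1279.6 (log2 change 1.22, SE 0.20, adjusted p = 0.0159), and PDHB, of pyruvate dehydrogenase, from 3901 and 3510.2 to 5579 and 5162 (log2 change 0.54), the 2 calls among 31 genes of the TCA cycle and pyruvate. None of 41 complex I genes passed and their median was 0.03, with 3 higher and 3 lower at an unadjusted p under 0.05. Of 20 cholesterol synthesis genes SC5D rose (log2 change 0.86), and of 33 fatty acid and lipid genes APOB and the fatty acid receptor gene CD36 (155 and 187 against 336 and 338). SAT1, which breaks down polyamines and was named after its values were seen, rose, with 2220.0 and 1884 against 6742 and 7202 (log2 change 1.79, SE 0.13, adjusted p = 0.000290).

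Few chromatin genes passed. SMARCA2, the BRM motor subunit of SWI/SNF complexes, rose from 175 and 177 to 326 and 349 (log2 change 1.14, SE 0.11, adjusted p = 0.00160), the only call among 42 remodeller genes, whose median was -0.14. Of 26 Polycomb genes 0 passed (1 higher at an unadjusted p under 0.05) and the median was -0.0034, with JARID2 at 0.44. Of 33 histone demethylase and MLL complex genes 0 passed, of 23 imprinted genes 0 and of 18 telomere genes 0, and DPPA3 was the only call among 19 genes of DNA methylation and demethylation. At an unadjusted p under 0.05, 1 demethylase or MLL complex gene was higher and 1 lower, 3 imprinted genes were higher and 2 lower, and 0 telomere genes differed either way. Histone genes behaved as individuals. H2BC12 rose from 564 and 444 to 2059 and 2155 (log2 change 2.17, SE 0.19, adjusted p = 0.000684), and the neighbours H2AC18 and H2AC19 rose (log2 changes 0.72 and 0.70), whereas H4C12 fell from 371 and 551 to 233 and 261, among 30 measured. H2BC12 and SMARCA2 were called with any 1 array left out.

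The cell surface and matrix changed gene by gene. SPOCK2, a proteoglycan, read 188 and 160.3 against 1103 and 759 (log2 change 2.73, SE 0.23, adjusted p = 0.000656), TNC, the matrix protein tenascin C, 230.0 and 199 against 882 and 865 (log2 change 2.28, SE 0.34, adjusted p = 0.0110), and the fibrillin gene FBN2 354 and 577 against 1200.3 and 908 (log2 change 1.29, SE 0.25, adjusted p = 0.0297). FRAS1, a basement membrane protein, fell from 376 and 651 to 188 and 209 (log2 change -1.53, SE 0.25, adjusted p = 0.0159). With the rise of HAS2 these made 4 rises and 1 fall among 35 matrix genes, with a median of 0.01. Among proteases ADAMTS1 rose from 159 and 174 to 507 and 473 (log2 change 1.85, SE 0.12, adjusted p = 0.000153) and MMP16 fell (log2 change -0.78), and the protease inhibitor gene SERPINE2 rose from 2607 and 3045 to 9629 and 8472 (log2 change 1.70, SE 0.22, adjusted p = 0.00683). The adhesion receptor gene ADGRG6 rose from 149 and 127 to 366 and 346, and PODXL, the sialomucin that carries stem cell surface antigens, fell from 4597 and 5386 to 2456 and 2471 (log2 change -1.03, SE 0.14, adjusted p = 0.00762). Of connexins GJA4 rose (log2 change 1.24) and GJA1, the main one of pluripotent cells, fell from 1269.8 and 1639 to 899 and 866 (-0.74).

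Hyaluronan genes, and sulfotransferases of the CHST and TPST groups, were further groups chosen after their values were seen. HAS2 and HAS3 make hyaluronan and CEMIP2 degrades it. HAS2 read 122 and 116 against 245 and 212, at least 1.84-fold higher (adjusted p = 0.00130), CEMIP2 369 and 339 against 744 and 678 (log2 change 1.10, SE 0.18, adjusted p = 0.0165), and HAS3 535 and 444 against 771 and 732 (log2 change 0.67). These were 3 rises and 0 falls among 12 hyaluronan genes, and the receptor genes CD44 (-0.64) and HMMR (-0.66) did not pass. The sulfotransferase genes CHST9 (309 and 283 against 547 and 465), CHST15 (log2 change 0.82), CHST7 (0.81) and TPST2 (0.72) rose, 4 of 15 in their group, and FUT4, the fucosyltransferase behind the SSEA-1 antigen, rose from 259.8 and 261 to 418 and 390.1. The number of hyaluronan genes called was 1 without control replicate 2, and that of sulfotransferases 0.

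Cytokine and chemokine genes had 5 rises and 0 falls. IL13RA2, a decoy receptor for interleukin 13, read 107 and 102 against 356 and 318, at least 2.72-fold higher (adjusted p = 0.000115), and the chemokine gene CCL26 175 and 165 against 455 and 445 (log2 change 1.68, SE 0.11, adjusted p = 0.000153). IL23A (log2 change 1.27), IL15 (0.89) and CXCR4 also rose. These were 5 of 47 measured interleukin, chemokine and receptor genes, 0 fell, 33 lay above control and the median was 0.18. The array holds 138 genes of this family. Of the 47 measured, 2 passed the filter only through the NANOG arrays, 1 of them a riser. At an unadjusted p under 0.05 in the same limma test, 13 were higher and 4 lower. IL13RA2 and CCL26 were called with any 1 array left out. Of 37 interferon and antigen presentation genes 2 rose, HLA-B (320.0 and 340.5 against 551 and 573) and IFIT3 (at least 1.32-fold), and 2 fell, BST2 (595 and 487 against 303 and 327) and IFIT1 (log2 change -0.52).

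Autophagy genes included 3 rises among 48 measured, the protease gene ATG4A (153 and 137 against 294 and 305) and the ATG8 family genes GABARAPL1 (757 and 781 against 1242 and 1211) and MAP1LC3A (335 and 320.1 against 427 and 480.0), whose products are processed by ATG4 proteases. The lysosomal protease gene CTSH fell from 406 and 462 to 255 and 250.4 (log2 change -0.89, SE 0.16, adjusted p = 0.0237). Of this autophagy and lysosome list 6.25% rose and 2.08% fell, beside 2.74% and 0.885% of all genes tested. At an unadjusted p under 0.05 in the same limma test, 5 members were higher and 3 lower. Some regulatory subunits of protein phosphatases rose. PPP2R2C, a subunit of phosphatase 2A, read 192 and 172 against 904 and 777 (log2 change 2.51, SE 0.16, adjusted p = 0.000153), and PPP1R1A, PPP1R1B, PPP1R16B and PPP1R17, all of phosphatase 1, had log2 changes from 0.68 to 1.58. These were 5 rises and 0 falls among 43 subunits, whose median was 0.02. PCDH10 (log2 change 1.07) and PCDH19 (0.61) rose among 28 protocadherins, of which 22 lay above control.

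Large families differed in their share of calls, beside 3.63% over all genes. Of 373 zinc finger genes 1 rose, ZNF204P, and 0 fell, or 0.268%. Of 244 solute carriers 9 rose and 3 fell, or 4.92%, and of 34 orphan GPR receptors 3 rose and 2 fell, or 14.7%. The 3 solute carriers that fell were the amino acid transporters above. Families with 0 calls included 48 DEAD and DEAH box helicases, 44 F-box proteins, 26 ubiquitin conjugating enzymes, 22 forkhead genes, 18 integrins and 16 cytochrome P450 genes. At an unadjusted p under 0.05 limma gave 5 helicases lower and 0 higher, and between 3 and 4 genes in each of the other families. Of 15 SOX genes SOX21 was the only call. Among 39 TRIM genes TRIM9 and TRIM24 fell (log2 changes -1.11 and -0.95), and among 41 ubiquitin specific proteases USP9X fell from 1199 and 1636 to 578 and 573 (log2 change -1.35, SE 0.24, adjusted p = 0.0211), as did its neighbour MED14 (log2 change -0.68). The primary transcript of MIR302C, a microRNA gene of pluripotent cells, fell from 188 and 229 to 142 and 148 (log2 change -0.68, SE 0.14, adjusted p = 0.0361).

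**Figure D5:**
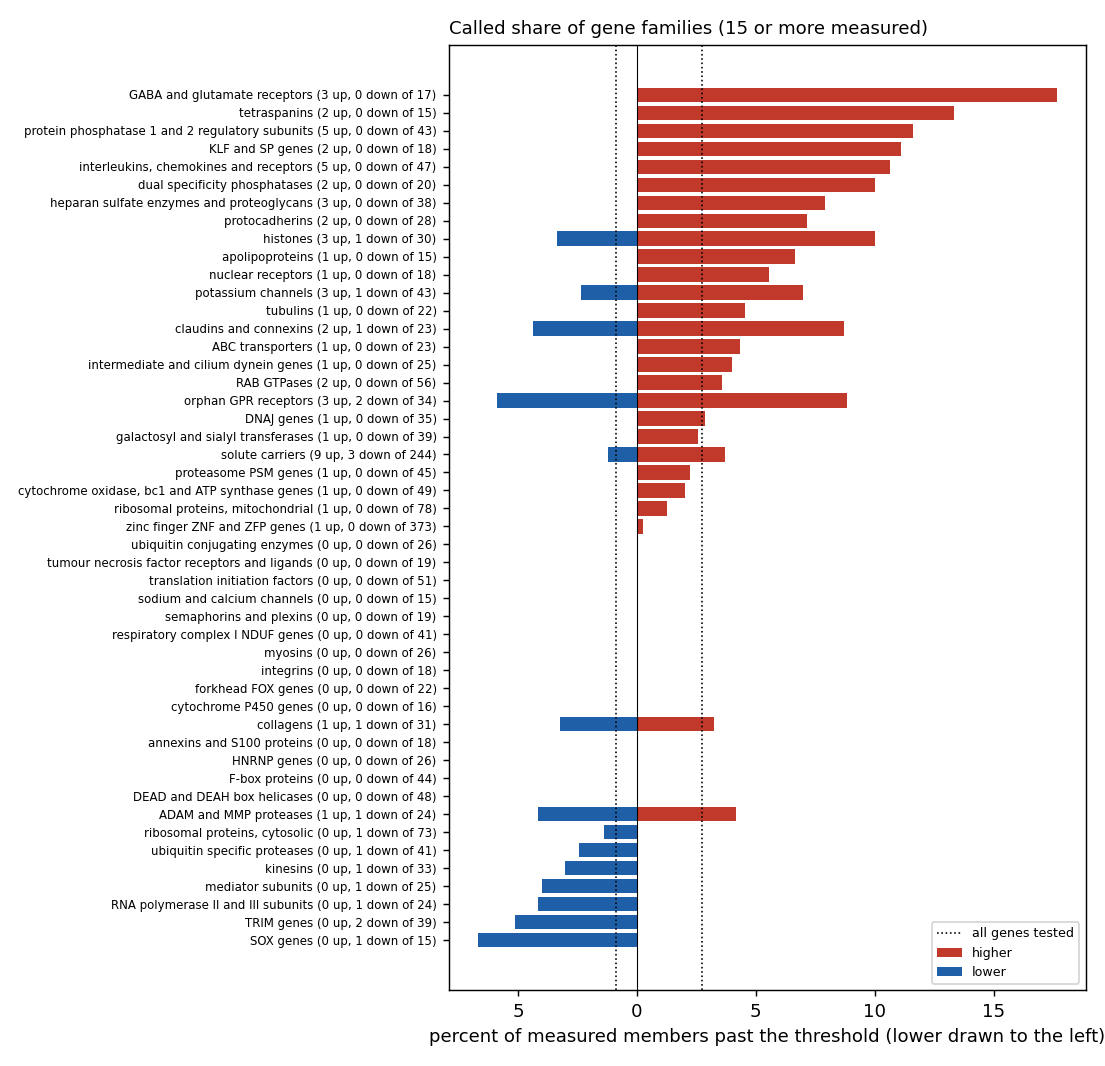
Percent of measured members that rose (red, to the right) or fell (blue, to the left) in each gene family with 15 or more measured members, with dotted lines at the shares over all genes tested, 2.74% and 0.885%. The bars rest on few genes each, at most 9 risers (solute carriers) and 3 falls.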

How the data were processed

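The authors deposited 1 processed intensity value per probe and array, on a linear scale, for 47323 probes. All 8 arrays had a median of 117.1 and their sorted values differed by at most 2.3, so they had been brought to 1 distribution. The tool is unstated in the sources used here. Another deposited table, from before normalization, has 16 columns that match no sample's label and was not used.

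Intensities were background-corrected with normexp (offset 50) in limma 3.58.1 under R 4.3.3 and taken to log2. The filter intensity, 123.7, is the 60th percentile of all intensities. Of 47323 probes 21828 passed, and each gene took its brightest one by mean over the arrays. Symbols came from the platform annotation, which named 1 gene for 30113 probes, several for 8 and none for 17202. Of these, 30074 matched RefSeq.

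All 8 arrays entered 1 two-sided limma model with a mean per group (4 residual and 4.39 prior degrees of freedom, median residual SD 0.139 log2), adjusted over 12436 genes. The procedure was tested on simulated data. Log2 changes are those of the corrected values with the offset added, and bounds on a fold are ratios of deposited intensities. The number of arrays, 2 per group, limits the precision.

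The 54 gene lists and 57 families with at least 8 measured genes were chosen with earlier results of these data known, as was the comparison, and lists were given by counts and medians, with no test of a list. Named genes are the 3 factors, the 10 largest changes in each direction among called genes whose arrays do not overlap, and up to 5 called members of each list or family, or the 2 largest changes where a list had none. Unnamed open reading frames and LOC genes were left out of that rule. Other genes, including those given as not passing, were named after their values were seen. Same-numbered control and NANOG arrays did not deviate together (r = -0.01), so they were not paired. Over the other pairs of groups r ranged from -0.19 (control and SOX2) to 0.38 (control and OCT4). Alternatives were the background correction, filter, arrays in the fit, array weights, probe choice, replicate block, variance trend and each array left out. Medians against each control array were added after seeing the data. One gene family is not reported here.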

Additional observations from a re-analysis of the deposited data

How the results depend on the processing

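The main counts, 341 up and 110 down, were within 1.5 times of themselves with no background correction, an offset of 16, no filter, the mean of a gene's probes, a variance trend and the replicate block (298 up and 96 down), which changed no direction of a named gene. They were 172 up and 66 down with the filter required on all 8 arrays, which tests fewer genes, 725 and 492 with only the 4 control and NANOG arrays in the fit, and 743 and 529 with array weights. All 451 calls were among the calls of these last settings, and the share of rises went from 75.6% to 59.6% and 58.4%. With 1 array left out, the count of rises ranged from 49 to 665 and that of falls from 0 to 427, and the share of rises from 60.9% to 100%. Both lowest counts came without NANOG replicate 1, where limma called 0 falls. Without either OCT4 array 266 rose and 68 fell. Of 152 named genes that passed, 18 passed with any 1 array left out, 101 passed under every other alternative, and 0 changed sign. List medians were compared under no background correction, an offset of 16, the filter on all 8 arrays, no filter and the mean of a gene's probes. Only members past the main filter were counted, and fits with an array left out did not enter. Under these settings the median of the mitosis list ranged from -0.32 to -0.25 and that of the nuclear pore list from -0.25 to -0.21. That of the metallothionein list ranged from 0.72 to 0.82 and that of the trophectoderm list from 0.20 to 0.86. Brightness near the filter intensity limits the changes that can be measured: 182 of the tested genes passed the filter only through the NANOG arrays, 50 of them among the risers. For these genes both NANOG arrays, and at most 1 other array, exceeded the filter intensity. Their fold changes are bounds where neither control array exceeded it.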

Other observations

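Single genes outside the lists also changed and were chosen after their values were seen. Nucleoside salvage was represented by UPP1, uridine phosphorylase (1697 and 1296 against 3172 and 2900.2, log2 change 1.05), and CDA, cytidine deaminase (157 and 123 against 243 and 231, 1.02), both of which rose. Growth factor ligands and receptors went in both directions. PDGFA rose from 293 and 228 to 469 and 509.8 (log2 change 1.05, SE 0.18, adjusted p = 0.0177), TGFA had a log2 change of 0.66, and NTRK3, the receptor of neurotrophin 3, was at least 1.76-fold higher (adjusted p = 0.00273). GDF11, a TGF-beta family ligand, fell from 300.4 and 319 to 182 and 188 (log2 change -0.91, SE 0.11, adjusted p = 0.00432), ROR1, a receptor of WNT5A, from 276 and 329 to 170.3 and 197 (log2 change -0.88, SE 0.16, adjusted p = 0.0254), GRPR, the receptor of gastrin-releasing peptide, with a log2 change of -1.11, and RGMA, a BMP coreceptor, from 338 and 455 to 214 and 202 (log2 change -1.08, SE 0.22, adjusted p = 0.0360).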
